A study of Mus musculus with 16 samples.

Results

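The Z-disc is the plate that anchors the thin filaments of neighbouring sarcomeres, and it is where the contractile lattice meets the proteins that sense mechanical load. Alpha-actinin crosslinks actin there, and PDZ-LIM, LIM and ankyrin-repeat proteins dock on alpha-actinin or on titin and are known to move between the Z-disc, the sarcomere and the nucleus when the wall is stretched. Several of these genes are known as targets of pressure overload in the ventricle, and mutations in several of them cause cardiomyopathy. The genes described here were Myot, Synpo2l, Fhl1, Fhl2, Ankrd1, Csrp3, Myoz2, Ldb3, Actn2 and Tcap. They were chosen by gene name, as every non-control probe that carries the symbol of a listed gene or a synonym, and the list was put together with earlier results of these same arrays known, among them the rise of Synpo2l after banding. Which other comparisons guided the choice is not recorded, so the members' differences are given as a description, and an adjusted p only places a probe among all probes of the fit. The 10 genes, of 27962 gene names on the array, had 14 probes of 41174, and each probe was found by its gene symbol.

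The arrays measured RNA from the heart ventricle of 129Sv mice, in 4 groups of 4 arrays: wild-type sham, wild-type TAB, CHIP-/- sham and CHIP-/- TAB. TAB is a banding of the aorta, which makes the left ventricle eject against a higher pressure, and tissue was taken 1 week after either operation. CHIP, encoded by Stub1, is a ubiquitin ligase that works with Hsp70 and Hsp90 chaperones. The labels name biological replicates, and give neither the animals' age nor a promoter or Cre for the deletion. Heart RNA carried the dye Cy5, and a reference RNA from whole neonatal mice of mixed 129Sv and C57BL/6 strain carried Cy3 on all 16 arrays. Each value below is a log2 ratio of heart over that reference, so a probe is read against itself across groups and never against another probe.

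The share of spots that the scanner software marks as well above background was 27.0% to 37.7% for heart RNA and 56.6% to 62.4% for the reference. The Stub1 probe lay between -0.41 and 0.43 (log2 ratio) on the 8 wild-type arrays and between -1.47 and -1.17 on the 8 CHIP-/- arrays, and the sources used here do not say whether it lies in the deleted part. The 4 arrays of a group lay on a slide of their own, so an effect of slide cannot be told apart from that of group. Signals of the CHIP-/- TAB files are stored with 3 significant digits, those of the other groups with 7. Of the 10 cardiomyocyte markers, 7 entered the fit, and their mean log2 ratio was 3.67 to 4.36 on every array. Of the 10 skeletal muscle markers, 8 entered the fit, at a mean of -2.34 to -1.94 on every array. The remaining markers of these lists did not enter the fit. Earlier results of these arrays showed 3 sham arrays with high Myl7, an atrial myosin light chain (replicates 1 and 3 of wild-type sham, replicate 1 of CHIP-/- sham), and 3 with Y-linked transcripts (replicate 4 of wild-type sham, replicates 2 and 4 of CHIP-/- sham). The calls of member probes that changed without either set of 3 are given with the genes. Those of the list genes are not given.

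The fit took probes whose heart signal was well above background on 4 or more of the 16 arrays and that had a value on 15 or more. Of the 14 member probes 13 entered, for 9 of the 10 genes. Tcap did not, because 3 of its 4 CHIP-/- sham spots carry the scanner software's outlier mark, and it is described apart. The words rise, fall and differ are used of a probe whose limma adjusted p (Benjamini-Hochberg over the 14684 probes of the fit) lay below 0.05.

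**Figure D1:**
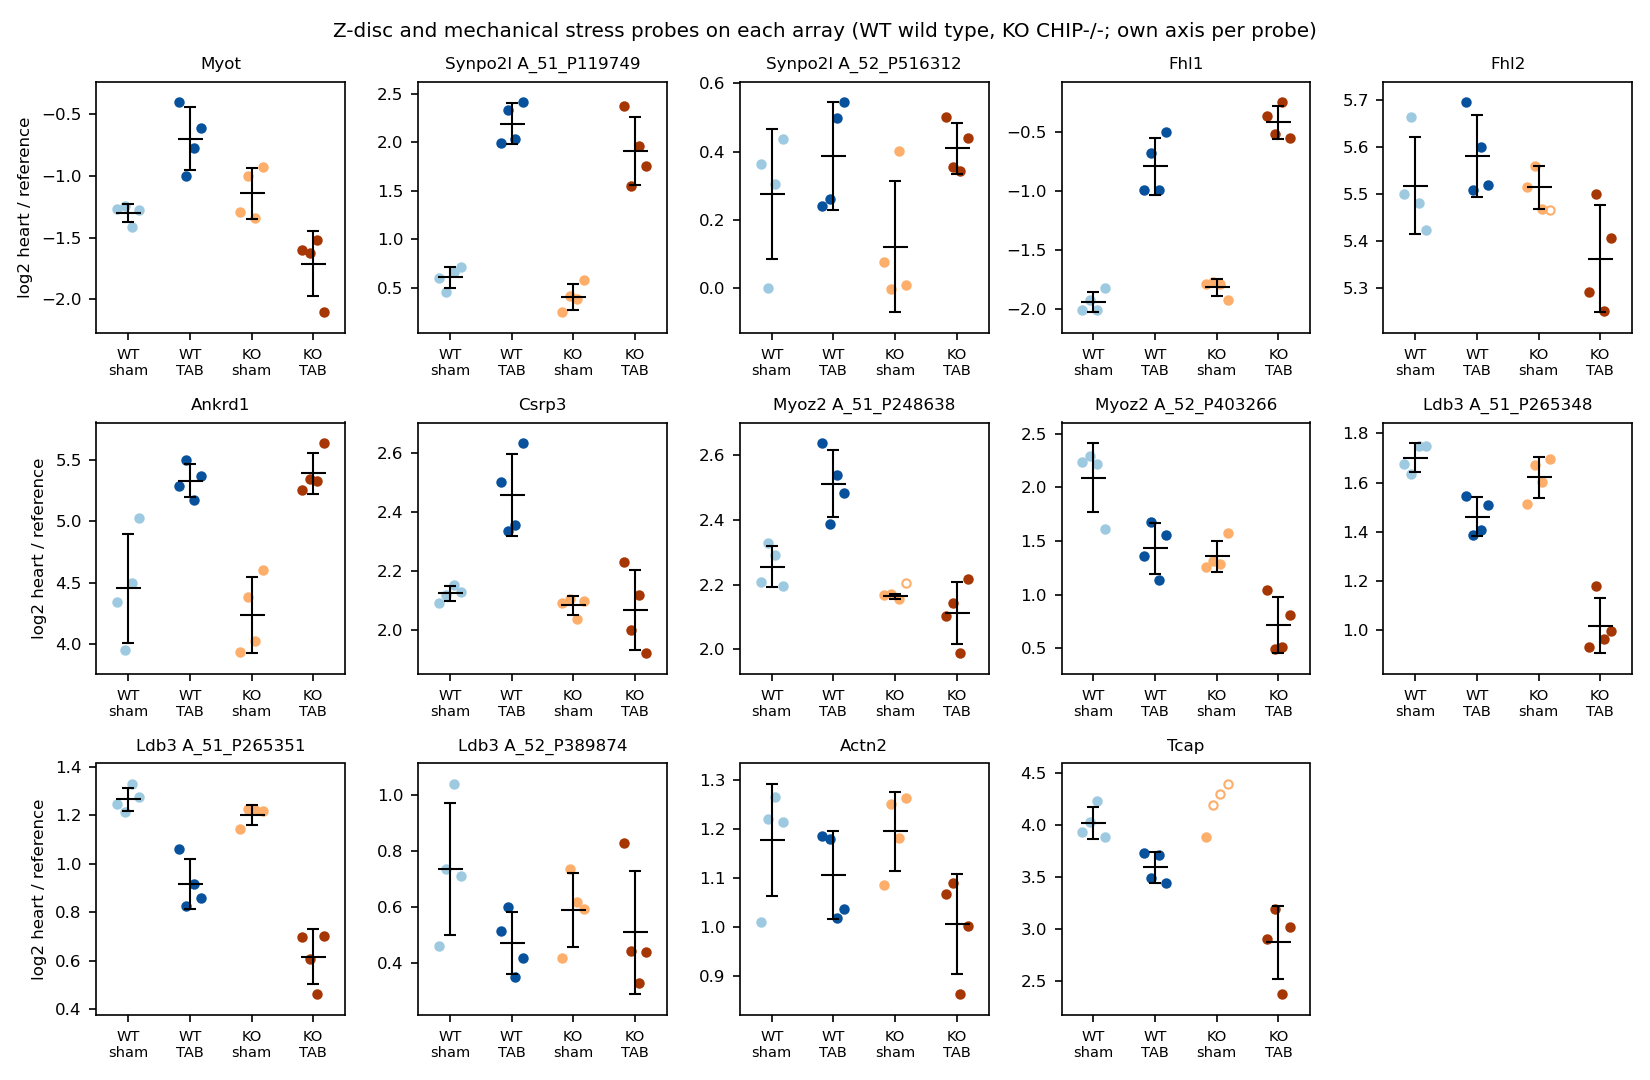
Log2 ratio of heart over reference (vertical axes, a scale of its own for each probe) on each array of the 4 groups (horizontal axes). Filled points are arrays, black bars are the group mean and SD of the filled points, and open points are spots with an outlier mark, which the fit left out. Synpo2l A_51_P119749, Fhl1 and Ankrd1 sit higher after TAB in both genotypes, whereas Myot sits higher after TAB in wild type and lower in CHIP-/-.

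After TAB in wild-type ventricle, 6 of the 13 member probes rose and 3 fell, against 16.3% of all probes tested that rose and 17.1% that fell. In CHIP-/- ventricle 3 rose and 5 fell, against 21.3% and 22.7% of all probes. The median difference of the 13 probes was 0.11 in wild type and -0.08 in CHIP-/-, against -0.01 and -0.02 over all probes tested. With arrays centred on their median in place of loess, the split of the members was 3 up and 6 down in wild type and 3 up and 9 down in CHIP-/-, while the median of all probes moved to -0.18 and -0.21. With scale normalization, which multiplies the log ratios of each array to a common spread, the splits were 2 up and none down, and 4 up and 1 down. The genes at which this turned a direction are named below with their values. The genotypes have separate sham controls, so the TAB responses share no arrays.

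Synpo2l, Fhl1 and Ankrd1 rose after TAB in both genotypes. Synpo2l encodes a synaptopodin-like protein that binds actin and alpha-actinin at the Z-disc. Fhl1 encodes a LIM protein that binds the elastic part of titin, and Ankrd1 encodes an ankyrin-repeat protein that shuttles between titin's N2A region and the nucleus and is a known marker of cardiac stretch. The stretches of genome before their starts are shown because each gene rose in both genotypes, and shared regulation was not tested. They are RefSeq windows of build GRCm38.p6, 250 bases before to 50 after a start, for 8 of the 10 members at 13 starts. No window of Myot or Tcap was searched. For each gene the most upstream start is printed, 5' to 3' on the gene's strand, and Ldb3, of which 2 probes fell, is shown for comparison. Capitals mark the M-CAT motif in Ankrd1 (chr19:36119795-36120094, minus strand), a MEF2 match in Synpo2l (chr14:20668305-20668604, minus strand) and CArG boxes in Fhl1 (chrX:56779433-56779732, plus strand) and Ldb3 (chr14:34588632-34588931, minus strand).
Ankrd1: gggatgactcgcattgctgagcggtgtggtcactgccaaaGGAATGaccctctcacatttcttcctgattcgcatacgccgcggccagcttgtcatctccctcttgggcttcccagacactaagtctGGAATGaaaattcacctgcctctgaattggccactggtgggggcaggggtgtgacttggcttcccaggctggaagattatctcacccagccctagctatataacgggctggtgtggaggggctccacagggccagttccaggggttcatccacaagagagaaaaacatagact
Synpo2l: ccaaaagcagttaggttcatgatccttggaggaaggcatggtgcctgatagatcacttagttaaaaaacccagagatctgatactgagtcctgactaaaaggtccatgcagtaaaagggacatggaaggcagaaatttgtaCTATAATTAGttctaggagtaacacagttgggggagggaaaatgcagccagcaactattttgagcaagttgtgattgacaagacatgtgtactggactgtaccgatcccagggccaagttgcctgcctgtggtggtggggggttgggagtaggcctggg
Fhl1: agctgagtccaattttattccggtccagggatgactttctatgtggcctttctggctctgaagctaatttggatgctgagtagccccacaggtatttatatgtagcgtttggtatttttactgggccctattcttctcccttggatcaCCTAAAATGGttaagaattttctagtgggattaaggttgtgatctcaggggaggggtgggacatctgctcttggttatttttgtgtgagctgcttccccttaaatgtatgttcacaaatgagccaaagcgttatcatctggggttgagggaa
Ldb3: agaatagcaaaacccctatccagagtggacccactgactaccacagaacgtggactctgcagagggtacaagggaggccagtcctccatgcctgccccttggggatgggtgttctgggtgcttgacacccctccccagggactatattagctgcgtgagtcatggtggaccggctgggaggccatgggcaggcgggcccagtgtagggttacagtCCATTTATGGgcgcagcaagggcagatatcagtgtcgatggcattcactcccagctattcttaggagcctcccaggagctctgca
The M-CAT motif, searched as CATTCC on both strands, is the sequence bound by TEAD factors. In Ankrd1 it was read on the opposite strand, at 210 and 123 bases before the start. No window of the other members searched held it, and 14.7% of the 32851 windows of this length hold it. The CArG box, bound by serum response factor, was found in the windows of Fhl1, Fhl2 and Ldb3, at 5 of the 13 starts, against 1.63% of all windows. It lay 102 bases before the printed start of Fhl1 and 35 bases before that of Ldb3. The other Ldb3 start held the same letters 109 bases before it, so 1 box may be counted at both starts. Genes with 2 starts count more than once, so the starts are not independent. The MEF2 motif was found for Fhl2, Myoz2 and Synpo2l, at 4 of the 13 starts, against 3.19% of all windows. GATA, searched as GATAA on both strands, was found at 4 of the 13 starts against 25.4% of all windows, and the E-box, CANNTG, at 11 against 72.3%. None of the matches in capitals overlapped another motif searched. Matching letters describe the sequence and are not evidence of binding.

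The brighter Synpo2l probe, A_51_P119749, read 0.60, 0.46, 0.66 and 0.71 (log2 ratio) in wild-type sham ventricles and 2.00, 2.33, 2.03 and 2.41 after TAB. In CHIP-/- it read 0.25, 0.41, 0.39 and 0.58 after sham and 2.38, 1.55, 1.96 and 1.75 after TAB. No TAB array overlapped a sham array of its genotype. The difference was 1.59 ± 0.12 (SE, log2; 3.00-fold) in wild type and 1.50 ± 0.12 (2.84-fold, adjusted p = 1.1e-09, limma) in CHIP-/-. The wild-type value stands 11th from the top of all probes tested, and it is the value already known when the list was made. The difference of the responses was -0.08, with a 95% interval from -0.44 to 0.27, so gaps within it are not excluded by these arrays. The call between genotypes after TAB was gained without CHIP-/- TAB replicate 1, at -0.44 (adjusted p = 0.012, limma), from -0.28 (adjusted p = 0.16) with all arrays.

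Of the other Synpo2l probe, A_52_P516312, the heart signal was 52.1 to 72.0, and it was well above background on 1 wild-type sham, 2 wild-type TAB and 1 CHIP-/- TAB array and on no CHIP-/- sham array. It passed the filter with exactly the minimum number of arrays. Its TAB differences were 0.11 ± 0.12 in wild type and 0.29 ± 0.12 in CHIP-/- (SE, log2; adjusted p = 0.51 and 0.050, limma; the latter is 0.05033 before rounding). The brighter probe cites a cDNA clone from embryonic heart and this one the RefSeq mRNA of the gene. In CHIP-/- its call was gained at 0.38 without CHIP-/- sham replicate 3 (adjusted p = 0.013) and at an unmoved 0.29 without wild-type sham replicate 2 or wild-type TAB replicates 1 or 4 (adjusted p = 0.039, 0.049 and 0.049). It was also gained in 6 other settings, with values from 0.24 to 1.54, the highest with the Feature Extraction log ratio.

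Fhl1 read -2.00, -1.92, -2.00 and -1.82 (log2 ratio) in wild-type sham ventricles and -0.99, -0.68, -0.99 and -0.50 after TAB. In CHIP-/- ventricles it read -1.78, -1.76, -1.79 and -1.92 after sham and -0.36, -0.51, -0.25 and -0.54 after TAB. All TAB arrays lay above all sham arrays, and all stayed below 0, where the reference from whole neonatal mice is brighter than the heart. The rise was 1.15 ± 0.09 (SE, log2; 2.22-fold) in wild type and 1.40 ± 0.09 (2.64-fold) in CHIP-/- (adjusted p = 4.3e-09 and 4.7e-11, limma). After TAB, Fhl1 was 1.30-fold higher in CHIP-/- than in wild type (0.37 ± 0.09, adjusted p = 0.0085), although the 2 sets of arrays overlapped. The test of the difference between the responses gave 0.25 ± 0.13 (adjusted p = 0.33). The genotype call after TAB was lost with median centring (0.31, adjusted p = 0.33) and with scale normalization (0.28, adjusted p = 0.41).

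Ankrd1 varied most between sham arrays. It read 4.35, 3.95, 4.50 and 5.02 (log2 ratio) in wild-type sham ventricles and 3.94, 4.39, 4.03 and 4.60 in CHIP-/- sham ventricles. After TAB it read 5.29, 5.50, 5.17 and 5.37 in wild type and 5.26, 5.34, 5.33 and 5.63 in CHIP-/-. Each TAB array exceeded each sham array of its genotype, and the SD was 0.44 and 0.31 in the sham groups and 0.14 and 0.17 after TAB. The rise was 0.88 ± 0.16 (SE, log2; 1.84-fold) in wild type and 1.15 ± 0.16 (2.22-fold) in CHIP-/- (adjusted p = 0.00012 and 1.9e-06, limma). No genotype difference after TAB passed (0.06, 95% interval -0.26 to 0.38, adjusted p = 0.87). With scale normalization the wild-type rise was 1.57 and no longer passed (adjusted p = 0.16).

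**Figure D2:**
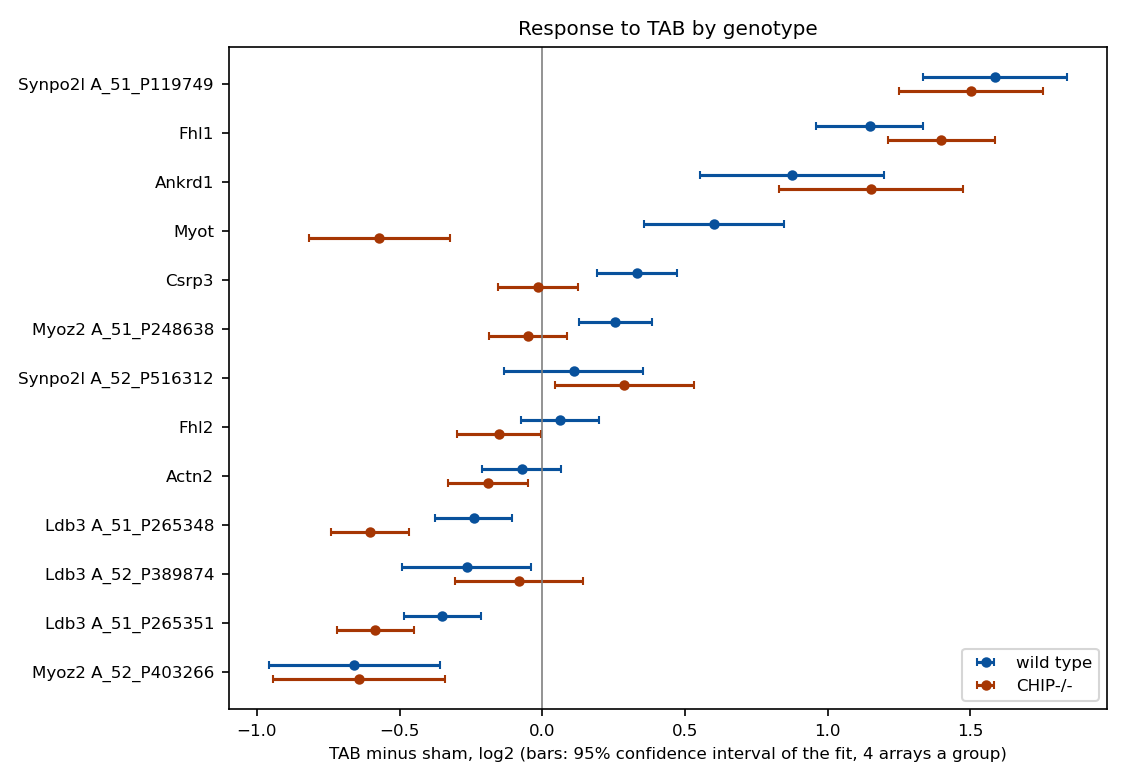
Difference of TAB minus sham (horizontal axis, log2) of the 13 member probes of the fit (vertical axis), in wild type and CHIP-/-, with 4 arrays in nearly every group and 3 in the CHIP-/- sham group for Fhl2 and Myoz2 A_51_P248638. Points are the fitted differences and bars their 95% confidence intervals. The intervals of Myot lie on opposite sides of 0 in the 2 genotypes, from 0.36 to 0.85 in wild type and from -0.82 to -0.32 in CHIP-/-.

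Myot rose after TAB in wild type and fell after TAB in CHIP-/-. It encodes myotilin, a protein with immunoglobulin-like domains that binds alpha-actinin and filamin C and bundles actin at the Z-disc. In wild-type ventricles the probe read -1.27, -1.24, -1.41 and -1.27 (log2 ratio) after sham and -0.40, -1.0, -0.77 and -0.61 after TAB. In CHIP-/- ventricles it read -1.29, -1.0, -1.34 and -0.93 after sham and -1.60, -1.62, -1.52 and -2.10 after TAB. All wild-type TAB arrays lay above the wild-type sham arrays, and all CHIP-/- TAB arrays lay below the CHIP-/- sham arrays. The groups therefore ran, from high to low, wild-type TAB, CHIP-/- sham, wild-type sham and CHIP-/- TAB, and CHIP-/- sham overlapped both of its neighbours. The sham groups were not shown to differ (0.16 ± 0.12, SE, log2; adjusted p = 0.84, limma).

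The response of Myot was 0.60 ± 0.12 (SE, log2; 1.52-fold higher) in wild type and -0.57 ± 0.12 (1.49-fold lower) in CHIP-/- (adjusted p = 0.00038 and 0.0004, limma). After TAB, CHIP-/- ventricles held 2.02-fold less than wild-type ventricles (-1.01 ± 0.12, adjusted p = 8.3e-06). The responses differed by -1.17 ± 0.17 (adjusted p = 0.00056), which is 4th from the bottom of the 14684 probes tested, and the genotype difference after TAB is 8th from the bottom. No array left out alone ended any of these calls, with the difference of the responses between -1.28 and -1.04. The signal in the heart channel alone moved in the same way (0.60 and -0.53, log2), while the reference channel moved by 0.01 and 0.11. Without the 3 arrays with Y-linked transcripts the CHIP-/- response was -0.40 (adjusted p = 0.036) and the responses differed by -1.01 (adjusted p = 0.017). The wild-type rise did not pass with median centring (0.29, adjusted p = 0.10) or with scale normalization (0.47, adjusted p = 0.16). Because the probe's heart signal was 147 to 454 against 1118 to 1709 in the reference channel, the ratio rests on a bright reference and a heart signal that was well above background on all 16 arrays.

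Csrp3, which encodes muscle LIM protein, a partner of telethonin and alpha-actinin known from stretch sensing, rose in wild type and showed no such rise in CHIP-/-. It read 2.09, 2.12, 2.15 and 2.13 (log2 ratio) in wild-type sham ventricles and 2.50, 2.34, 2.36 and 2.63 after TAB. In CHIP-/- it read 2.09, 2.11, 2.04 and 2.10 after sham and 2.23, 2.00, 2.12 and 1.92 after TAB. The wild-type groups were apart and the CHIP-/- groups overlapped. The rise was 0.33 ± 0.07 (SE, log2; 1.26-fold, adjusted p = 0.00053, limma), against -0.02 ± 0.07 in CHIP-/- (adjusted p = 0.87, 95% interval -0.16 to 0.12). After TAB, CHIP-/- held 1.31-fold less (adjusted p = 0.00053), a call lost with median centring (-0.44, adjusted p = 0.069) and with scale normalization (-0.15, adjusted p = 0.86). With median centring both responses were lower, at -0.13 in wild type, a turned direction that did not pass, and at -0.59 in CHIP-/-, a fall that passed (adjusted p = 0.00037). In the heart channel alone the wild-type rise was 0.14 and did not pass (adjusted p = 0.14). With scale normalization it was 0.69 and did not pass either (adjusted p = 0.14, limma). Over the 31 alternatives the CHIP-/- response ran from -0.59 to 0.63. The difference of the responses was -0.35 ± 0.10 (adjusted p = 0.038), and it missed the threshold when any 1 of 13 of the 16 arrays was left out, with values from -0.37 to -0.29 and adjusted p up to 0.079. The 3 arrays whose loss kept the call were wild-type TAB replicates 2 and 3 and CHIP-/- TAB replicate 1. It also missed with the authors' deposited log2 ratios (-0.34, adjusted p = 0.060), without the 3 arrays with high Myl7 (-0.34, adjusted p = 0.13) and without the 3 with Y-linked transcripts (-0.33, adjusted p = 0.23). With median centring, in the heart channel alone and with scale normalization it missed as well (-0.45, -0.25 and -0.07, adjusted p = 0.41, 0.20 and 0.98, limma).

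Myoz2 encodes a calsarcin, which ties the phosphatase calcineurin to alpha-actinin at the Z-disc and restrains it. Its brighter probe, A_51_P248638, read 2.21, 2.33, 2.29 and 2.20 (log2 ratio) in wild-type sham ventricles and 2.64, 2.39, 2.54 and 2.48 after TAB. In CHIP-/- it read 2.17, 2.17 and 2.15 on the 3 sham arrays without an outlier mark and 2.10, 2.14, 1.99 and 2.22 after TAB. The pattern resembled that of Csrp3: a rise of 0.26 ± 0.06 in wild type (SE, log2; adjusted p = 0.0025, limma), -0.05 ± 0.07 in CHIP-/- (adjusted p = 0.57), and a 1.32-fold lower level in CHIP-/- after TAB (adjusted p = 2.0e-04). With median centring the wild-type value was turned, at -0.15, and did not pass, while the CHIP-/- value was -0.56 and did. The genotype call after TAB was lost with median centring (-0.43, adjusted p = 0.072) and with scale normalization (-0.10, adjusted p = 0.92). In the heart channel alone the wild-type rise was 0.11 and did not pass (adjusted p = 0.26). With scale normalization it was 0.61 and did not pass either (adjusted p = 0.21, limma). Over the 31 alternatives the CHIP-/- response ran from -0.56 to 0.63. The difference of the responses was -0.31 ± 0.09 and missed the threshold (adjusted p = 0.055), while it passed without wild-type TAB replicate 2 (-0.35, adjusted p = 0.029) and without CHIP-/- TAB replicate 2 or 4 (-0.32 and -0.34, adjusted p = 0.048 and 0.035). Over the 31 alternatives this difference ran from -0.41 to 0.01, with adjusted p from 0.029 to 0.99 (limma). It missed the threshold in 24 of them and passed in 7.

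The other Myoz2 probe, A_52_P403266, went the opposite way after TAB in wild type. In wild type it read 2.23, 2.29, 2.22 and 1.61 after sham and 1.36, 1.67, 1.14 and 1.55 after TAB. The CHIP-/- sham values were 1.26, 1.31, 1.29 and 1.58, and those after TAB 1.04, 0.50, 0.52 and 0.82. It fell by 0.66 ± 0.15 in wild type and by 0.64 ± 0.15 in CHIP-/- (SE, log2; adjusted p = 0.0011 and 0.00092, limma), and it was 1.64-fold lower in CHIP-/- than in wild type after TAB (adjusted p = 0.0022). The wild-type sham and TAB arrays overlapped, through wild-type sham replicate 4, and the CHIP-/- ones did not. The wild-type fall missed the threshold with the Feature Extraction log ratio (-0.55, adjusted p = 0.11). With scale normalization neither fall passed (-0.35 and -0.37, adjusted p = 0.28 and 0.18, limma). Nor did the genotype difference after TAB then pass (-0.68, adjusted p = 0.093). After sham surgery the groups were apart, with CHIP-/- at -0.73 ± 0.15, but the adjusted p was 0.072. That call was gained without wild-type sham replicate 4 (-0.89, adjusted p = 0.0046), without CHIP-/- sham replicate 4 (-0.80, adjusted p = 0.033) and, at the same -0.73, without CHIP-/- TAB replicate 1 (adjusted p = 0.047). Without the 3 arrays with Y-linked transcripts, which include both sham replicates numbered 4, it was -0.97 (adjusted p = 0.017). The heart signal of this probe was 74.0 to 319.9, against 2140 to 5294 for the brighter probe, and it cites a heart cDNA clone where the brighter probe cites the RefSeq mRNA.

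Ldb3 encodes a PDZ-LIM protein also called ZASP or Cypher, which stabilises the Z-disc by binding alpha-actinin. Probes A_51_P265348 and A_51_P265351 cite the same transcript record, and both fell after TAB in both genotypes. The former read 1.67, 1.63, 1.75 and 1.75 (log2 ratio) after sham and 1.55, 1.39, 1.41 and 1.51 after TAB in wild type. The CHIP-/- sham values were 1.51, 1.67, 1.60 and 1.70, and those after TAB 0.93, 1.18, 0.96 and 1.00. The 4 CHIP-/- TAB arrays lay below all the others. It fell by 0.24 ± 0.07 in wild type and by 0.60 ± 0.07 in CHIP-/- (SE, log2; adjusted p = 0.0066 and 8.1e-08, limma), and the other probe fell by 0.35 ± 0.07 and 0.58 ± 0.07 (adjusted p = 0.00024 and 1.4e-07). After TAB both were lower in CHIP-/- than in wild type, at -0.44 and -0.30 (adjusted p = 0.00011 and 0.0042). The genotype call of A_51_P265351 was lost with median centring (-0.28, adjusted p = 0.30, limma). The wild-type fall of A_51_P265348 missed the threshold in the heart channel alone (-0.17, adjusted p = 0.11, limma). Without the 3 arrays with high Myl7 that fall just missed it (-0.23, adjusted p = 0.055). With scale normalization none of these calls of either probe passed. The wild-type value of A_51_P265348 then was 0.0056, a turned direction, and the CHIP-/- values were -0.20 and -0.32 (adjusted p = 0.52 and 0.080).

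The responses of A_51_P265348 differed by -0.36 ± 0.09 (SE, log2; adjusted p = 0.025, limma), and those of A_51_P265351 by -0.23 ± 0.09, which missed the threshold (adjusted p = 0.18). The former missed it when any of 6 arrays was left out: wild-type sham replicate 2, CHIP-/- sham replicates 2 and 4, wild-type TAB replicate 1 and CHIP-/- TAB replicates 1 and 3. The value then was -0.35 to -0.34 with adjusted p of 0.054 to 0.061, and without the 3 arrays with Y-linked transcripts it was -0.32 (adjusted p = 0.21). It also missed with the authors' deposited log2 ratios (-0.34, adjusted p = 0.058). With median centring, in the heart channel alone and with scale normalization it missed as well (-0.43, -0.36 and -0.20, adjusted p = 0.38, 0.080 and 0.88, limma). The third probe, A_52_P389874, cites another transcript record of Ldb3 and gave -0.27 ± 0.11 in wild type and -0.08 ± 0.11 in CHIP-/- (adjusted p = 0.065 and 0.58). Its wild-type fall passed without wild-type sham replicate 1 (-0.36, adjusted p = 0.016) and, at the same -0.27, without CHIP-/- TAB replicate 1 (adjusted p = 0.038). Its level after TAB differed by 0.04 between genotypes (95% interval -0.19 to 0.26), where the other probes were lower in CHIP-/-.

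Fhl2 and Actn2 showed small TAB differences in both genotypes. Fhl2, a LIM protein that binds titin and restrains calcineurin signalling, read 5.42 to 5.66 (log2 ratio) after sham and 5.51 to 5.69 after TAB in wild type. In CHIP-/- it read 5.47 to 5.56 on the 3 unmarked sham arrays and 5.25 to 5.50 after TAB. Its TAB differences were 0.06 ± 0.07 and -0.15 ± 0.07 (SE, log2; adjusted p = 0.50 and 0.090, limma). The CHIP-/- one passed without CHIP-/- TAB replicate 2 (-0.20, adjusted p = 0.029). It also passed with median centring (-0.75, adjusted p = 2.0e-05), in the heart channel alone (-0.36, adjusted p = 0.0017), with the Feature Extraction log ratio (-0.19, adjusted p = 0.021) and with the authors' deposited log2 ratios (-0.18, adjusted p = 0.013). With scale normalization it was 1.46, which did not pass. After TAB all 4 CHIP-/- arrays were below all wild-type arrays, and the level was 1.16-fold lower (-0.22, adjusted p = 0.038), a call that ended without wild-type TAB replicate 1 or 3 or CHIP-/- TAB replicate 1 or 3 (-0.21 to -0.18, adjusted p = 0.088 to 0.14) and, at the same -0.22, without the 3 arrays with high Myl7 or the 3 with Y-linked transcripts (adjusted p = 0.064 and 0.054). Median centring turned its wild-type response to -0.41, which passed, and scale normalization turned the genotype difference after TAB to 0.60, which did not. That genotype call also ended with median centring and in the heart channel alone (-0.27 and -0.12, adjusted p = 0.44 for each, limma). With no filter on dim probes and with no intensity trend it ended at the same -0.22 (adjusted p = 0.10 and 0.084, limma).

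Actn2 encodes the alpha-actinin of heart muscle, the protein most of the other members bind. It read 1.01 to 1.27 after sham and 1.02 to 1.19 after TAB in wild type, and 1.09 to 1.26 and 0.86 to 1.09 in CHIP-/- (log2 ratio), and the groups compared overlapped. The difference was -0.07 ± 0.07 in wild type (SE, log2; adjusted p = 0.45, limma) and a fall of 0.19 ± 0.07 in CHIP-/- (adjusted p = 0.025). That call ended without CHIP-/- sham replicate 2 or 4 (-0.17 for each, adjusted p = 0.072 and 0.074) and without CHIP-/- TAB replicate 3 (-0.14, adjusted p = 0.11), and without the 3 arrays with Y-linked transcripts (-0.13, adjusted p = 0.27). Scale normalization turned the CHIP-/- value to 0.16, which did not pass, while wild type became a fall that passed with median centring (-0.52, adjusted p = 0.0019) and in the heart channel alone (-0.28, adjusted p = 0.0027).

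Tcap encodes telethonin, the cap that links pairs of titin ends at the Z-disc. It read 3.94, 4.03, 4.24 and 3.89 (log2 ratio) in wild-type sham and 3.73, 3.50, 3.71 and 3.44 in wild-type TAB ventricles. In CHIP-/- TAB ventricles it read 2.91, 3.19, 2.38 and 3.02. In CHIP-/- sham ventricles the spot without an outlier mark read 3.88, and the 3 marked spots read 4.20, 4.30 and 4.39. The CHIP-/- TAB arrays lay below every other array, and the wild-type TAB arrays lay below the wild-type sham arrays. With marked spots kept, which was decided after seeing the data, Tcap fell by 0.43 ± 0.13 in wild type and by 1.32 ± 0.13 in CHIP-/- (SE, log2; adjusted p = 0.013 and 1.7e-08, limma over 14908 probes). It was then 1.65-fold lower in CHIP-/- after TAB (adjusted p = 6.7e-04), and the responses differed by -0.89 ± 0.18 (adjusted p = 0.0065). Kept spots with median centring gave -0.96 and -1.98, and with scale normalization 0.14, a turned direction that did not pass, and -0.22, which did not pass either. With scale normalization the genotype difference after TAB was -0.26 and that of the responses -0.36, and neither passed (adjusted p = 0.84 and 0.91). With the authors' deposited log2 ratios the responses of Tcap differed by -0.84 (adjusted p = 0.023).

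**Figure D3:**
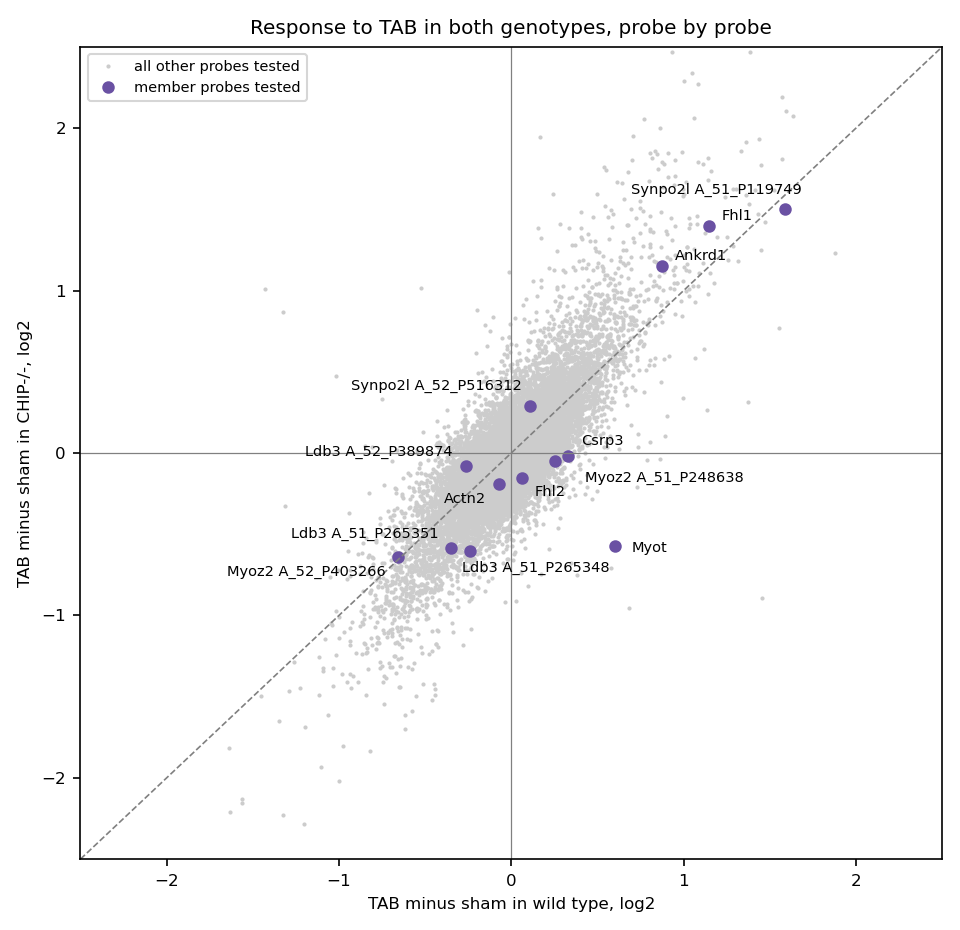
Difference of TAB minus sham in wild type (horizontal axis, log2) and in CHIP-/- (vertical axis, log2) for every probe tested. Grey points are probes of other genes (14 probes lie outside the axes), purple points the 13 member probes, and the dashed line marks equal responses. Myot stands apart from the cloud at 0.60 and -0.57, and Synpo2l A_51_P119749, Fhl1 and Ankrd1 stand high near the line.

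Between genotypes the members split by surgery. After sham surgery none of the 13 probes passed (1 at an unadjusted p below 0.05, limma), against 0.0341% of all probes tested, which is 5 probes, with 1127 at an unadjusted p below 0.05. After TAB 1 member probe was higher in CHIP-/- and 7 were lower, against 4.43% and 5.48% of all probes tested. The higher probe was Fhl1, and the lower ones were those of Myot, Fhl2, Csrp3 and Myoz2 (both) and the Ldb3 pair A_51_P265348 and A_51_P265351. The median difference of the 13 probes was -0.28, against -0.01 over all probes. With median centring 3 probes were lower in CHIP-/- and none higher, and with scale normalization 1 was lower and none higher. In the test of the difference between TAB responses, 3 member probes were lower and none higher, against 2.05% and 2.32% of all probes, and these were Myot, Csrp3 and Ldb3 A_51_P265348. Only Myot passed in each of the 31 alternatives, and the count of member probes fell to 1 without wild-type sham replicate 2, CHIP-/- sham replicate 2 or 4, wild-type TAB replicate 1 or CHIP-/- TAB replicate 3.

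The mean level of the cardiomyocyte markers (log2 ratio, 7 of 10 markers) was 4.21 to 4.36 after sham and 3.90 to 4.24 after TAB in wild type. In CHIP-/- it was 3.85 to 4.34 after sham and 3.67 to 3.85 after TAB. Of these 7, 4 fell after TAB in wild type and 6 in CHIP-/-, where 1, Tnnt2, rose, although with median centring and in the heart channel alone it fell (-0.37 and -0.63, log2). Over all probes tested 17.1% fell in wild type, and 22.7% fell and 21.3% rose in CHIP-/-. With scale normalization 3 of the 4 wild-type falls and 5 of the 6 in CHIP-/- turned direction, none of which then passed, and Ryr2 alone kept its direction in both. The fibroblast markers, 10 of 10 in the fit, lay higher after TAB: -1.67 to -1.25, -1.07 to -0.46, -1.97 to -1.57 and -0.28 to 0.01 in the same order of groups. Macrophage markers, 10 of 10, lay between -0.20 and 0.04 on sham arrays, 0.26 and 0.36 in wild-type TAB and 0.52 and 0.72 in CHIP-/- TAB arrays. Smooth muscle and pericyte markers, 10 of 10, lay between -0.20 and 0.01 on sham arrays and between 0.22 and 0.61 on TAB arrays. Endothelial markers, 10 of 10, lay between 0.61 and 0.72 on sham arrays and between 0.71 and 1.09 after TAB. Atrial markers, 5 of 6, spread widely among sham arrays, from -1.89 to 0.27, and lay between -1.50 and -0.91 after TAB. The part of these cells in the members' differences was not tested, and in whole ventricle RNA fewer cells of a type and less RNA per cell cannot be told apart.

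The RNAs of other genes listed with the Z-disc moved in both directions. Of 33 listed genes of Z-disc structure and PDZ-LIM partners, 29 were tested, and 8 rose and 7 fell in wild type, 15 rose and 7 fell in CHIP-/-. Over all probes tested, 16.3% rose and 17.1% fell in wild type, and 21.3% rose and 22.7% fell in CHIP-/-. The median differences of the 29 genes were 0.15 and 0.17, against -0.01 and -0.02 over all probes. With median centring the splits were 3 up and 13 down, and 7 up and 11 down, and with scale normalization 5 up and none down, and 12 up and none down. In the heart channel alone CHIP-/- had 11 up and 8 down. The largest rises in wild type were those of Xirp2 (1.02, log2), an actin-binding protein of the intercalated disc, and of the LIM genes Csrp2 (0.99) and Csrp1 (0.80). In CHIP-/- they were those of Csrp2 (1.58), Des (1.32), the intermediate filament around the Z-disc, and Xirp2 (1.27). The largest falls were those of Cmya5, a protein tied to alpha-actinin and to desmin (-0.66 in wild type, -1.27 in CHIP-/-), Jph2, which holds the transverse tubule to the sarcoplasmic reticulum (-0.51 and -0.52), and Nebl, a nebulin relative at the Z-disc (-0.49 and -0.70). Scale normalization turned the value of Nebl in CHIP-/- to 0.20, which did not pass.

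Within that list the TAB responses of 4 genes differed between genotypes, and only that of Des did so with each of 4 other scalings. Over all probes, 2.32% had a higher and 2.05% a lower response in CHIP-/-, for this list and those that follow. Des rose by 1.32 (log2) in CHIP-/-, while wild type stood at 0.17 and did not pass (difference 1.15, adjusted p = 2.85e-04, limma). Des is also listed among the smooth muscle and pericyte markers. Csrp2, at 0.99 and 1.58, differed by 0.59 (adjusted p = 0.0075). Cmya5 differed by -0.61 (adjusted p = 0.0042) and Nrap, a nebulin-related protein of forming myofibrils, by -0.38 (adjusted p = 0.049), with 0.08 in wild type, which did not pass, and -0.30 in CHIP-/-, which scale normalization turned to 0.23, not past the threshold. The differences of Csrp2 and Cmya5 missed with median centring (adjusted p = 0.31 and 0.13) and with scale normalization (0.11 and 0.96), and that of Nrap missed with all 4 (0.11 to 0.94).

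Of 12 genes of titin, the M-band and their partners, 10 were tested, and 1 rose and 4 fell in wild type, 1 rose and 7 fell in CHIP-/-. Here and for the lists that follow, the shares over all probes were 16.3% up and 17.1% down in wild type and 21.3% and 22.7% in CHIP-/-, with medians of -0.01 and -0.02. The gene that rose was Ankrd23, a titin-binding relative of Ankrd1 (0.67 and 0.94, log2). Among those that fell in both genotypes were Ttn itself (-0.63 and -0.65) and Trim63, a muscle ubiquitin ligase also called MuRF1 (-0.61 and -0.81). The median was -0.19 in wild type and -0.40 in CHIP-/-, and it stayed below 0 with each of 4 other scalings, with 8 down and none up in wild type under median centring, and 3 down and none up under scale normalization.

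Of 23 genes of the costamere and integrin mechanosensing, 22 were tested, and 4 rose and 8 fell in wild type, 7 rose and 10 fell in CHIP-/-, with medians of -0.10 and 0.03. With median centring none rose and 12 fell in wild type, and 1 rose and 11 fell in CHIP-/-, and with scale normalization 1 rose and 1 fell, and 4 rose and 1 fell. In the heart channel alone 2 rose and 7 fell in wild type. Itgb1, the beta subunit of the cardiac integrins, rose by 0.57 (log2) in wild type and by 1.32 in CHIP-/-, which differed by 0.75 (adjusted p = 0.0021, limma, but 0.14 with scale normalization). Zyx, the LIM protein zyxin, rose by 0.32 and 0.65, and Lims2, which links integrins to actin through Ilk, rose by 0.27 in wild type and fell by 0.29 in CHIP-/- (difference -0.57, adjusted p = 0.017, but 0.061 to 0.84 with 4 other scalings). Bcar1, an adaptor of integrin signalling, rose by 0.22 and 0.26. Median centring turned the wild-type values of Zyx and Lims2 to -0.05 and -0.04 and those of Bcar1 to -0.03 in wild type and -0.05 in CHIP-/-, none of which passed, and scale normalization turned Lims2 in CHIP-/- to 0.25, which did not pass. Tln1, which encodes talin, differed by 0.44 (adjusted p = 0.0085, but 0.39 with median centring), with -0.19 in wild type and 0.25 in CHIP-/-, the latter -0.04 with median centring. The largest falls in wild type were those of Sgca (-0.43), Dag1 (-0.38) and Itga7 (-0.36), parts of the membrane complexes that hold the costamere to laminin. In CHIP-/- those that fell included Sgca (-0.56) and Cavin4 (-0.35).

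Of 16 genes of calcineurin, NFAT and MEF2 signalling, which Myoz2 and Fhl2 are known to restrain, 15 were tested. Rcan1, a feedback inhibitor of calcineurin whose transcription calcineurin is known to drive, rose by 1.29 (log2) in wild type and by 1.63 in CHIP-/- (adjusted p = 3.6e-06 and 4.5e-08, limma). In all 2 rose and 6 fell in wild type, and 2 rose and 7 fell in CHIP-/-, with a median of -0.17 in each. With median centring the splits were 1 up and 9 down, and 1 up and 8 down, and with scale normalization 1 up and 1 down, and 1 up and 5 down. The second that rose was Mef2c (0.24 and 0.26), which median centring turned to -0.04 and -0.08, neither of which passed. Mef2d (-0.49 and -0.83) and Mef2a (-0.45 and -0.41) fell in both genotypes, Hdac9 (-0.55) in wild type and Hdac4 (-0.31 and -0.52) in both. None of the 15 differed by genotype after TAB or in its response.

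Of 12 stretch-responsive cardiac genes, 11 were tested, and 7 rose and none fell in wild type, 10 rose and none fell in CHIP-/-, with medians of 0.83 and 1.06. Nppb and Nppa, the natriuretic peptides, rose by 1.82 and 1.73 (log2) in wild type and by 2.73 and 2.87 in CHIP-/-. Myh7, the slow myosin heavy chain, rose by 1.60 in wild type, and Ccn2, connective tissue growth factor, by 2.27 in CHIP-/-. The responses of Nppa, Nppb, Ccn2 and the matrix gene Tnc were larger in CHIP-/- by 1.14, 0.90, 1.19 and 0.63 (adjusted p = 0.046, 0.024, 0.0087 and 0.049, limma). None of these 4 passed with scale normalization, only Ccn2 did with the Feature Extraction log ratio, only Nppb and Ccn2 did in the heart channel alone, and Tnc missed with median centring as well. Nppb was lower in CHIP-/- after sham (-0.98, adjusted p = 0.011, limma), and its level after TAB was not shown to differ (-0.07, adjusted p = 0.85). For Nppa the genotype differences were -0.72 after sham and 0.42 after TAB, and neither passed (adjusted p = 0.31 and 0.29). The part of the sham arrays with high Myl7 in these differences was not tested. The responses of Synpo2l, Fhl1 and Ankrd1 were not shown to differ, at -0.08, 0.25 and 0.28 (adjusted p = 0.87, 0.33 and 0.59).

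**Figure D4:**
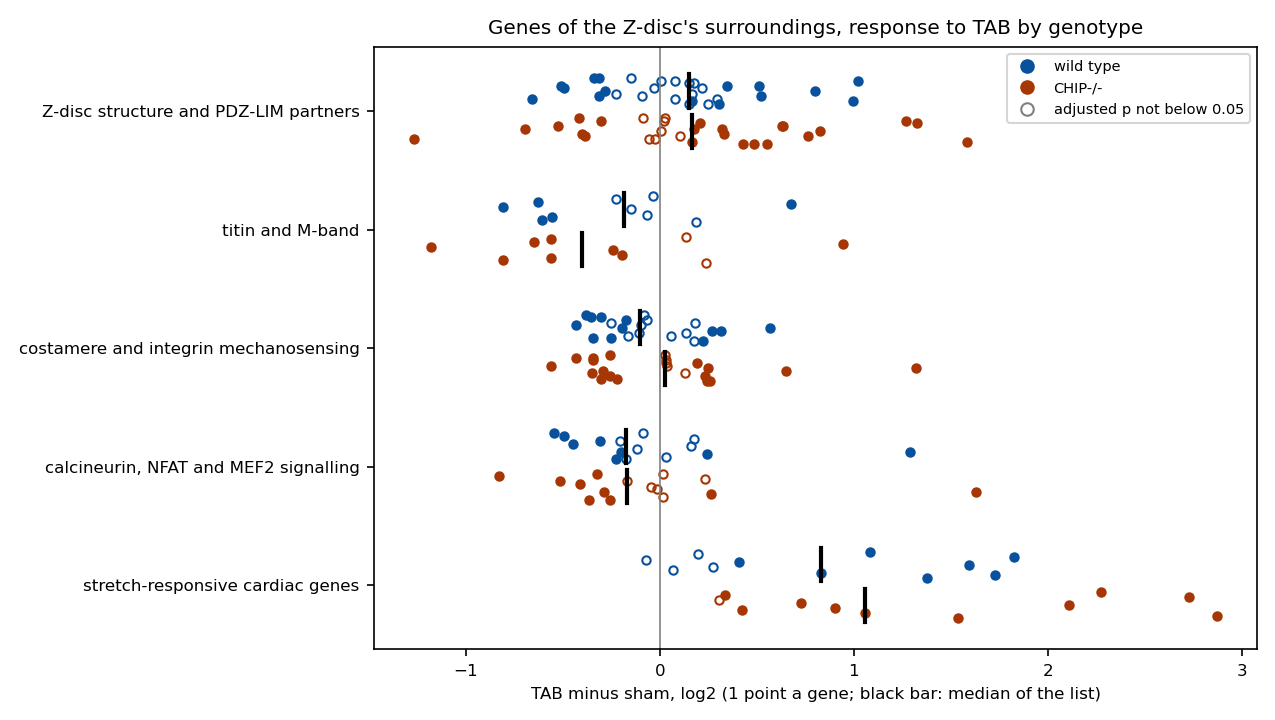
Difference of TAB minus sham (horizontal axis, log2) for the genes of 5 lists around the Z-disc (vertical axis), in wild type (blue, upper row) and CHIP-/- (brown, lower row). Filled points have an adjusted p below 0.05, open points do not, and black bars are list medians, which run from -0.19 to 0.83 in wild type and from -0.40 to 1.06 in CHIP-/-.

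Across the 16 arrays the members formed groups. Synpo2l, Fhl1 and Ankrd1 correlated with each other at 0.85 to 0.92 (Pearson, brightest probe of a gene, over the 14 to 16 arrays with a value), and Fhl1 with Ldb3 at -0.87. Myot correlated with Csrp3 at 0.80 and with Myoz2 at 0.72. These values hold the differences between the 4 groups, and arrays share their reference and scanner, so they are descriptions. After removal of the group means, Synpo2l with Fhl1 was at 0.56, Synpo2l with Ankrd1 at 0.30, Fhl1 with Ankrd1 at 0.07 and Fhl1 with Ldb3 at -0.23. Myot and Csrp3 remained at 0.64, Myot and Myoz2 were at 0.01, and Fhl2 and Myoz2 were at 0.78 against 0.77 before. Synpo2l and Fhl2 were at -0.77 within groups against -0.23 over all arrays.

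The features outside the list whose pattern over the 16 arrays was most like a member's were ranked by Pearson's r among 9953 named features. Those of Myot were Fam13a, Asph and Ndufc2, at 0.84 to 0.87. Synpo2l was followed by Plscr1, Cavin1 and Tnfrsf12a at 0.97, and Fhl1 by Rpl39, Eef1a1 and Meox1 at 0.99. Ankrd1 was followed by Evpl, Lman1l and Rala at 0.93 to 0.95. Fhl2 was followed by Cox14, Cox8b and Atp5j at 0.92 to 0.93, and the brighter Myoz2 probe by Uqcr11, Ndufa13 and Cd163 at 0.92 to 0.93. Csrp3 was followed by Gpihbp1, Rtl8b and Eif1ax at 0.83 to 0.85, Ldb3 by Lrtm1, Rpl3l and Lpin1 at 0.95 to 0.96, and Actn2 by Noct, Rbmxl2 and Phactr4 at 0.85 to 0.89. These values too hold the differences between the 4 groups. After removal of the group means all were lower, from 0.28 for Csrp3 with Rtl8b to 0.89 for Myoz2 with Ndufa13.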

How the data were processed

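RNA of 16 ventricles was hybridised to 2-colour Agilent arrays against a neonatal mouse reference. Per the file headers, the deposited files hold mean signal intensities and the authors' log10 ratios of Cy5 over Cy3 from Feature Extraction, and the deposited series table holds the authors' log2 ratios. Mean signals were background-corrected (normexp, offset 50) and normalized by loess within arrays, with control spots given no weight and spots with an outlier mark left out. The scale removes differences in RNA amount between hearts. The comparisons were TAB against sham in each genotype, genotype within each surgery, and the difference of the TAB responses. Each was fitted on all 16 arrays with limma 3.58.1 in R 4.3.3, with an intensity trend and Benjamini-Hochberg adjustment over the 14684 probes tested. The script was tested on simulated data. The members and lists were chosen with earlier results of these data known. Genes are named by their probe's label. Every member probe is described, with the 3 features most like the brightest tested probe of each of 9 genes, and list genes are named where their TAB responses differed or, among those called, for the largest TAB differences. The number of arrays limits the precision. Some genes of the lists are counted but not reported here by name.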

Additional observations from a re-analysis of the deposited data

Results flagged for a closer look

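In 4 of the 53 groups of 4 arrays checked among the member probes, 1 array stood apart from the others by Dixon's gap test, which chance gives in about 1 group in 20. Fhl1 read -1.92 (log2 ratio) on CHIP-/- sham replicate 4, below the others at -1.79 to -1.76. Myoz2 A_52_P403266 read 1.61 on wild-type sham replicate 4, below the others at 2.22 to 2.29. The same probe read 1.58 on CHIP-/- sham replicate 4, above the others at 1.26 to 1.31. Ldb3 A_51_P265351 read 1.14 on CHIP-/- sham replicate 1, below the others at 1.22 to 1.23.

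The TAB response differed between genotypes, by a test of the difference itself in limma, for Myot (-1.17, log2), Csrp3 (-0.35) and Ldb3 A_51_P265348 (-0.36), each lower in CHIP-/-. Only the Myot call held in all 31 alternatives. The Csrp3 call was lost in 23 of the 31 and that of Ldb3 A_51_P265348 in 14.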

How the results depend on the processing

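Each member difference was recomputed under up to 31 alternatives, which gave 1985 values. Of these 1861 kept their side of the threshold, 79 no longer passed, 39 newly passed and 6 turned direction with the original or the new value past the threshold. Among the 1861, 52 changed sign where neither value passed, 13 of them with scale normalization.

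The number of member probes called after TAB in wild type, 9 in the report, was 2 with scale normalization and 9 to 10 when an array was left out. In CHIP-/-, 8 in the report, it was 5 with scale normalization, 12 with median centring and 7 to 9 without an array. The genotype count after sham, 0 in the report, was 1 with median centring, with the heart channel alone, with array weights and without the 3 arrays with Y-linked transcripts, and 0 to 1 without an array. It was 1 without wild-type sham replicate 4, CHIP-/- sham replicate 4 or CHIP-/- TAB replicate 1. The genotype count after TAB, 8 in the report, was 3 with median centring, 1 with scale normalization and 7 to 8 without an array. The count of differing responses, 3 in the report, was 1 with median centring, the Feature Extraction log ratio, the heart channel alone, scale normalization, no filter on dim probes, no intensity trend and without the 3 arrays with Y-linked transcripts. With the authors' deposited log2 ratios it was 2, Myot and Tcap, which that table lets be tested. It was 5 with spots with an outlier mark kept, an alternative chosen after seeing the data, and 1 to 4 without an array.

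Of the 6 turned directions, 3 came with median centring in wild type after TAB, for Fhl2 (-0.41), Csrp3 (-0.13) and Myoz2 A_51_P248638 (-0.15). The other 3 came with scale normalization, for Ldb3 A_51_P265348 in wild type (0.0056), Actn2 in CHIP-/- (0.16) and Fhl2 between genotypes after TAB (0.60). The cause was not tested.

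Over all probes, scale normalization moved the calls from 4905 to 1898 (TAB in wild type), 6456 to 3977 (TAB in CHIP-/-), 1455 to 376 (genotype after TAB), 641 to 69 (responses) and 5 to 1 (genotype after sham). Median centring gave 501 for genotype after TAB, 198 for responses and 29 for genotype after sham.

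The labels do not say whether a replicate number is shared between groups. Deviations of same-numbered arrays correlated at -0.18 to 0.15 and those of other-numbered arrays at -0.15 to 0.23, which cannot exclude a pairing. With the replicate number as a block the 5 counts were 9, 9, 0, 8 and 2. Probes near background, such as Synpo2l A_52_P516312, have the least precise ratios.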
